A study of Mus musculus with 2 samples.

Results

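Basement membranes are sheets of laminin, collagen IV, nidogen and perlecan that lie under epithelia and around vessels, muscle fibres and nerves. In skin, hemidesmosomes anchor the basal keratinocyte to this sheet: keratin filaments are bound inside the cell by plectin and the dystonin form BP230, integrin α6β4 and collagen XVII span the membrane, and laminin-332 receives them outside. Collagen VII then ties the sheet to the dermis, and loss of many of these proteins makes skin blister. The genes described here are 34 genes of this system, chosen as a list of names and found through the gene name that the array files give to each probe outside the controls. All 34 had a probe, out of 24329 named genes on the array, and together they were read by 49 probes.

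The arrays compared skin from newborn C57BL/6N mice, at postnatal day 0, that were Pla2g4e-/- (the knockout pool) or Pla2g4e+/+ (the wild-type pool). Pla2g4e encodes a cytosolic phospholipase A2, and the series asks about its part in psoriasis-like inflammation. Each genotype was 1 array, hybridised with an even mix of skin RNA from 5 animals, so the values of single animals are not seen and no test between genotypes was possible. Every difference below is 1 pool against 1 pool, without replicate error, and is given with the error that the scanner software assigns to the spots. That error covers the array and not the animals. It was nearly the same for most genes, with a median of 0.20 log2 and a 95th percentile of 0.30. It thus acts much like a fixed threshold and is not an uncertainty measured for each gene. Repeat spots of a probe varied less, with a median SD of the difference of 0.04 log2.

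Median spot signals were similar on the arrays, at 249 (wild type) and 241 (knockout) in units of processed intensity. The targeted gene Pla2g4e read 662 (wild type) and 320 (knockout) at its brighter probe. Which exons were deleted is unknown here, and a probe outside them checks nothing about the labels. The basal keratins Krt5 (247197 and 224586) and Krt14 (92691 and 87086) were bright in both pools, so keratinocytes were present in both. The pools were unlike in sex: the Y-linked Ddx3y read 2893 with the wild type and 2.36, not well above background, with the knockout. Sex, and the position of the array on the slide, therefore cannot be told apart from genotype in any value below. In whole skin, fewer cells of a type and less RNA per cell cannot be told apart either.

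A difference is the log2 signal in the knockout pool minus that in the wild-type pool, after the 75th percentile of each array was set to 0. This scaling adds 0.09 to each raw log2 ratio. A gene was counted as higher or lower at 1.5-fold, or 0.585 log2. Where a gene had several probes it was represented by the brightest of those well above background on both arrays.

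Of the 34 genes, 33 were measured, and most lay slightly above 0. Above 0 were 28 of 33, where 51.8% of all 19431 measured genes were, and the median of the 33 was 0.23 log2, against 0.01 for all genes. The differences were small. At least 1.5-fold higher were 3 genes, namely Lama1, Dst and Col4a4, where 6.74% of all genes were; 0 were at least 1.5-fold lower, where 4.50% of all genes were. None of the 33 reached 2-fold in either direction, against 2.24% of all genes higher and 1.45% lower. The count at 1.5-fold, 3 of 33, is thus near the background, and the genes differed from the array as a whole in the side of 0 on which they lay. That side was not particular to them. Above 0 were also 70.7% of the related genes described below, 90% of mural and 100% of skeletal muscle markers, but 6.25% of hair follicle markers. The members were chosen with earlier results of these data known, so their count above 0 describes them and tests nothing.

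Against the scanner error, 5 of the 33 were higher by more than 2 errors, namely Lama1, Dst, Col4a4, Lamb3 and Npnt, where 11.2% of all genes were, and 0 were lower by that much, where 7.82% were. Another 13 lay between 1 and 2 errors, all above 0. Over all genes, this band held what the shares of 11.2%, 7.82% and 55.9% leave, both sides of 0 together. Its split by side over all genes was not counted. The other 15 differed by less than 1 error, where 55.9% of all genes did. Brightness touches this count, since 11 of the 33 were among the brightest 10% of genes. In that brightest class 60.7% of genes lay above 0, with a median of 0.05. Of the 11 members within it 10 lay above 0, with a median of 0.24, and of the 22 outside it 18 did, with a median of 0.20.

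**Figure D1:**
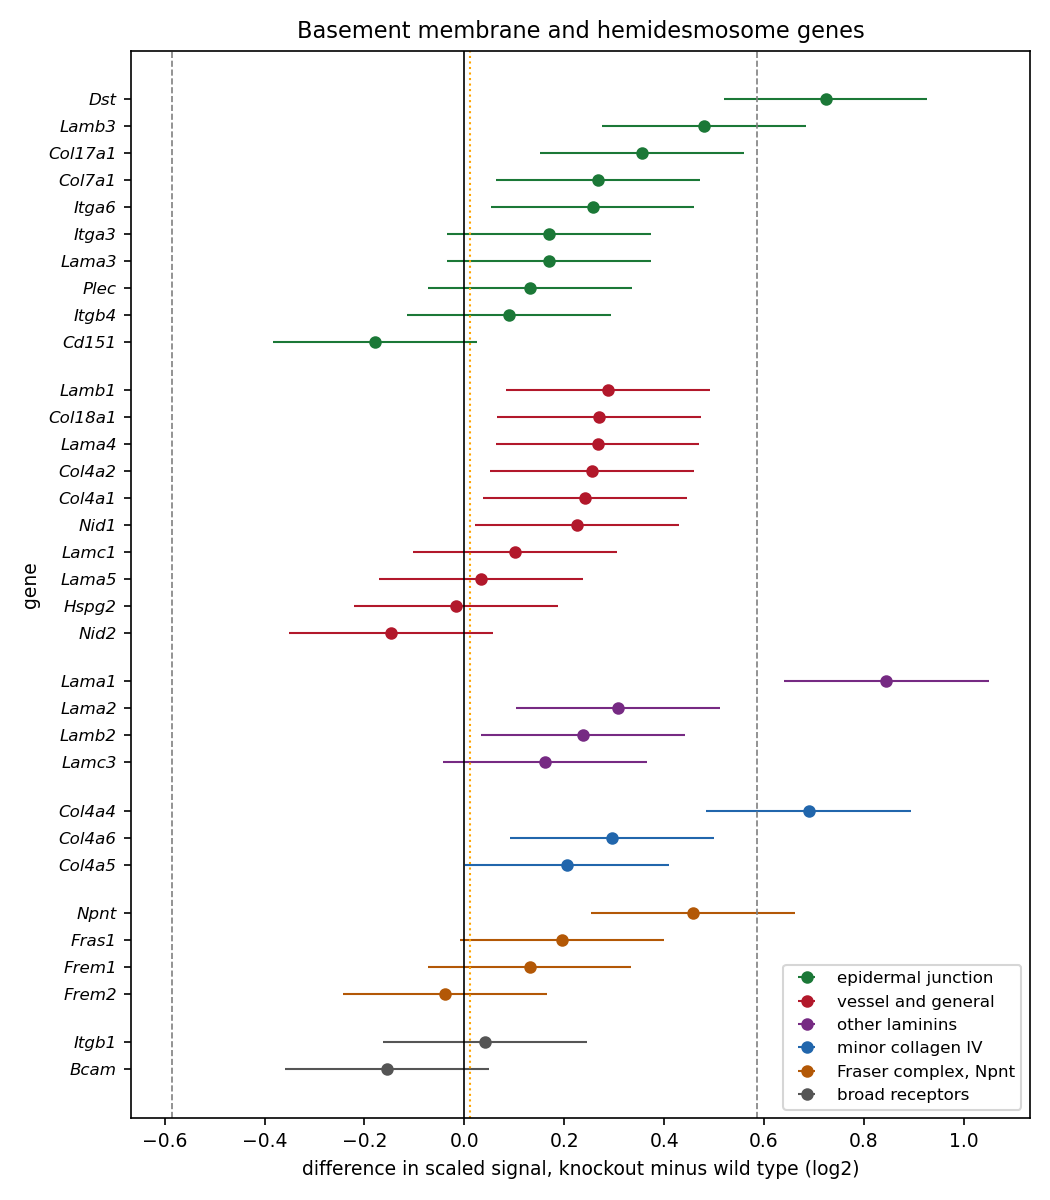
Difference in scaled log2 signal, knockout minus wild-type pool, for the 33 measured genes, grouped by role; points are single arrays compared once, bars are 1 scanner error, dashed lines mark 1.5-fold and the dotted line the median of all genes. Only Dst, Lama1 and Col4a4 lie past the dashed line on the right, and 28 of 33 points lie right of 0.

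The epidermal junction was represented by 10 genes: the laminin-332 chains Lama3 and Lamb3, the hemidesmosome genes Dst, Plec, Col17a1, Itga6, Itgb4 and Cd151, the anchoring fibril collagen Col7a1, and the laminin receptor Itga3. Of these, 9 lay above 0, and the median was 0.21 log2. Dst, which encodes the plakin dystonin, stood furthest from 0. Its brightest probe read 18916 (wild type) and 29312 (knockout), a difference of 0.72 ± 0.20 log2 (scanner error), or 1.65-fold. It was the single gene of the 10 past 1.5-fold, and with its probes averaged it stood at 0.576, just under the threshold of 0.585.

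Dst makes several proteins, and its probes tell them partly apart. The short epithelial form BP230, the plaque protein of the hemidesmosome, ends upstream of the long forms found in nerve and muscle. The brightest probe belongs to transcript variant 4 (NM_010081) and lies at mm9 chr1:34239785-34239844, 124800 bases before the next mapped probe, which belongs to variant 2. A further probe, for variant 3, also lists variants 1 and 2 among its targets. These 2 probes are shown because they separate the short transcript from the long ones; each is the 60-base oligo of the array, with a reading frame free of stop codons.
Dst variant 4 probe: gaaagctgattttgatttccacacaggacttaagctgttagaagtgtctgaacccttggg
Dst variant 3 probe: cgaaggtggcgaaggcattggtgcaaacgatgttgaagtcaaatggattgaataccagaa

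All 4 Dst probes read higher in the knockout pool. The probe for variant 3, which has no position in the files, read 720 and 905, a difference of 0.42 ± 0.20. The probe for variant 2, at chr1:34364644-34364703, read 1193 and 1571, a difference of 0.49 ± 0.20. The probe for variant 1, at chr1:34365447-34365506, was dim, at 80.4 and 120, and differed by 0.67 ± 0.21. The difference of the variant 4 probe exceeded that of the variant 3 probe by 0.30 log2, where the combined scanner error was 0.29. It exceeded those of the variant 2 and variant 1 probes by 0.23 and 0.05. These contrasts have no replicate error, and whether the short transcript changed more than the long ones was not tested.

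The RefSeq table of GRCm38.p6 gives Dst 2 starts, and the sequences before them are unlike. The 250 bases before each are shown, 5′ to 3′ on the plus strand, with the GC box GGGCGG in capitals, searched on both strands.
Dst before the start at 34011595, chr1:34011345-34011594: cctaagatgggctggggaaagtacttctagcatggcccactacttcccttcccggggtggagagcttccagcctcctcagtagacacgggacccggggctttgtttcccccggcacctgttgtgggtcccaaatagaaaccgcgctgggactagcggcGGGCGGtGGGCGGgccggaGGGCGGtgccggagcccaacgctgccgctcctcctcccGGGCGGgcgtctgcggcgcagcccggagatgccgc
Dst before the start at 34160260, chr1:34160010-34160259: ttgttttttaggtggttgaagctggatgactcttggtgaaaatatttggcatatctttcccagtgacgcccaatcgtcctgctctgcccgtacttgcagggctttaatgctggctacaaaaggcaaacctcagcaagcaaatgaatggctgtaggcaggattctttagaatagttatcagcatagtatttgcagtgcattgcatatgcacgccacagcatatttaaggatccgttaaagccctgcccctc

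The first stretch held 4 GC boxes and 22 CpG dinucleotides, and its GC content was 68.8%. The other held 0 GC boxes and 5 CpG, with a GC content of 45.2%. Among all 32851 promoters of the table, 32.7% held a GC box in the same window and the median was 6 CpG. The table does not say which transcript begins at which start, and a match of letters is not a bound site.

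Laminin-332 joins the hemidesmosome to the sheet below, and its α3 and β3 chains were among the genes listed. Lamb3, the β3 chain, read 10119 (wild type) and 13239 (knockout), 0.48 ± 0.20 log2. Lama3, the α3 chain, read 3258 and 3438 at its brighter probe, 0.17 ± 0.20, and 1942 and 1839 at the other, 0.01 ± 0.20. The β3 chain was above 2 scanner errors, and both probes of its α3 partner lay within 1 error of 0. The range of 1 error around Lamb3 overlapped that of the brighter Lama3 probe and not that of the other. The difference between the chains was not tested.

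The transmembrane partners of Dst lay between 0.09 and 0.35 log2, each less than 2 scanner errors from 0. Col17a1, collagen XVII, which binds BP230, laminin-332 and integrin α6β4, read 11678 and 14019, 0.35 ± 0.20. Itga6, the α6 integrin chain, read 39123 and 43876, 0.26 ± 0.20. Itgb4, the β4 chain that pairs with it, read 10618 and 10608, 0.09 ± 0.20. The chains of the α6β4 pair thus differed from each other by less than the error of either.

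Plec, plectin, the other plaque protein that holds keratin filaments, was near 0. Its signal was among the brightest of all these genes, at 51629 (wild type) and 53109 (knockout), and the difference was 0.13 ± 0.20. Col7a1, the collagen of anchoring fibrils, read 49709 and 56158, 0.27 ± 0.20. Itga3, the α3 chain of the receptor α3β1 for laminin-332, read 533 and 563, 0.17 ± 0.20. None of these 3 was as far as 1.5-fold.

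Cd151, a tetraspanin bound to laminin-binding integrins, was the 1 gene of the epidermal junction below 0. Its probes read 13341 and 11063, then 1124 and 1018, with differences of -0.18 ± 0.20 and -0.05 ± 0.20. Both lay within 1 scanner error of 0.

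The vascular and general part held 10 genes: Lama4 and Lama5, the α chains of endothelial laminins, Lamb1 and Lamc1, the β1 and γ1 chains that pair with them, the collagen IV chains Col4a1 and Col4a2, Col18a1, Nid1, Nid2 and Hspg2. These are the components of vessel walls, but all except Lama4 are widely made and also lie under the epidermis. Of the 10, 8 lay above 0, the median was 0.23 log2, and 0 passed 1.5-fold.

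In this part 6 genes stood close together between 0.23 and 0.29. Col4a1 was printed 10 times on each array, and gives the precision of a single probe. Its spots ran from 15095 to 16875 in the wild-type pool, with a median of 16089, and from 16783 to 18915 in the knockout pool, with a median of 17633. The spots of the pools overlapped slightly before scaling, and the scaled difference was 0.24, with an SD over the 10 spots of 0.02. Spots repeat the same RNA, so this SD says nothing of the animals.

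Col4a2, whose chain combines with 2 chains of Col4a1 in the common collagen IV, read 10600 and 11876, 0.26 ± 0.20. Lamb1 read 32742 and 37500, 0.29 ± 0.20. Lama4 read 4538 and 5125, 0.27 ± 0.20. These 3 values and that of Col4a1 spanned 0.24 to 0.29, less than the scanner error of any.

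Col18a1, the source of endostatin, and Nid1, nidogen-1, which links laminin to collagen IV, were each read by several probes that fell together. Those of Col18a1 read 15792 and 17871, then 10169 and 11382, with differences of 0.27 and 0.25. The 3 probes of Nid1 read 33037 and 36277, 496 and 544, then 264 and 304, with differences from 0.23 to 0.29; the files place the dimmest apart from the others, at mm9 chr13:12794798-12794857. The others lie at chr13:13604435-13604494 and chr13:13602780-13602839, and both differed by 0.23. Bright and dim probes named for these genes thus gave nearly the same difference. Whether the probe placed apart reads Nid1 was not checked.

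The 4 remaining genes of this part lay nearer 0. Lamc1 read 27312 and 27494, 0.10 ± 0.20. Lama5, the α chain of laminin-511 in both epidermal and vessel basement membranes, read 18832 and 18089, 0.03 ± 0.20. Hspg2, perlecan, read 17254 and 16018, -0.02 ± 0.20, and its dimmer probe read 338 and 292, -0.12 ± 0.20. Nid2, nidogen-2, read 2676 and 2270, -0.15 ± 0.20. Nid1 and Nid2, which have overlapping functions, lay on opposite sides of 0, Nid2 within 1 error of it.

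Set side by side, the epidermal and the vascular part did not separate. Their medians were 0.21 and 0.23, a difference of -0.02 log2, and their means 0.25 and 0.15. The difference of medians was above 0 in 6 of 28 alternatives, at most 0.02. The epidermal part had the wider spread, with an SD over its genes of 0.24 against 0.15, and held the extremes of both, Dst and Cd151. No test was run on this contrast, since the genes are not replicates.

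**Figure D2:**
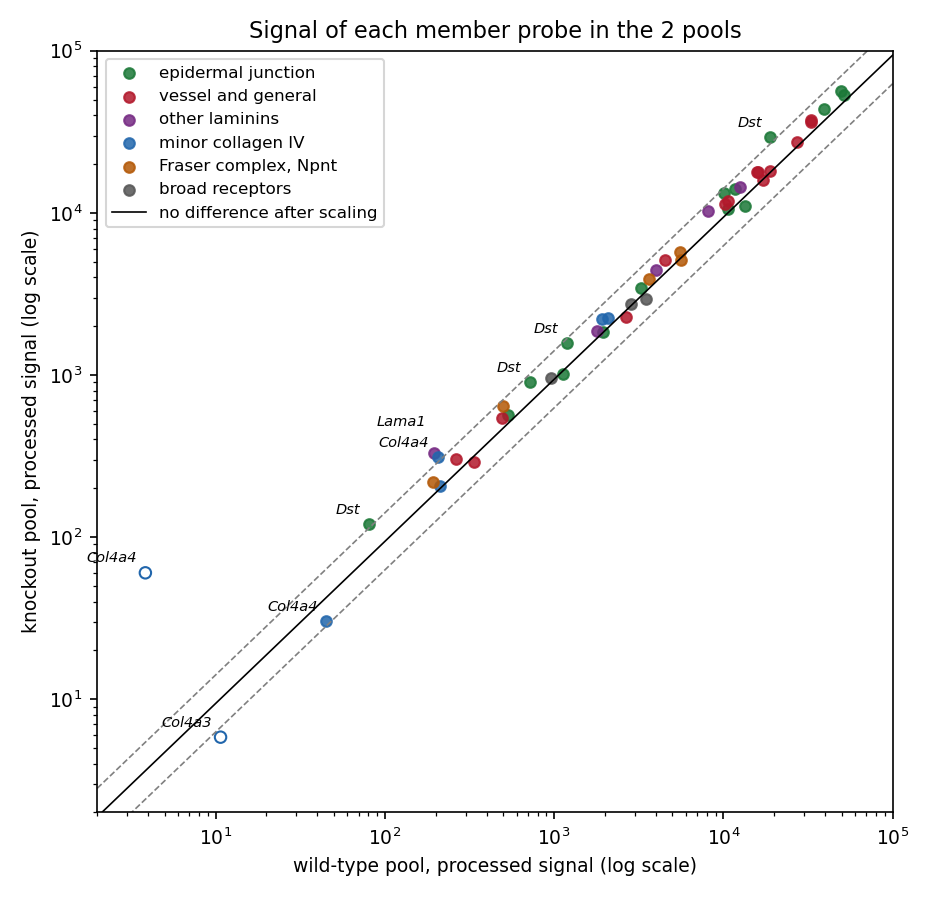
Processed signal of the 49 member probes in the wild-type pool (x axis) and the knockout pool (y axis), both on log scales; filled points were well above background on both arrays, open points were not, the solid line is no difference after scaling and dashed lines are 1.5-fold. Most points lie just above the solid line over the whole range of signal; the open Col4a4 point read 3.85 and 60.1.

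The laminin chains of other tissues were all above 0. Lama1, the α chain of early embryonic laminin, had the largest difference of the 33 genes, 0.84 ± 0.21 log2 or 1.80-fold. It rests on 1 dim probe, which read 196.7 (wild type) and 331.5 (knockout). Lama2, the α chain of muscle and Schwann cell laminin, read 12484 and 14508, 0.31 ± 0.20, and 8168 and 10210 at its other probe, 0.41 ± 0.20. Lamb2, a β chain found in muscle and vessel walls, read 3998 and 4426, 0.24 ± 0.20. Lamc3, a rarer γ chain, read 1790 and 1879, 0.16 ± 0.20.

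Markers of skeletal muscle and Schwann cells, which make Lama2, were also above 0. All 12 muscle markers were, with a median of 0.29, and Myh3, embryonic myosin, stood highest at 0.99. Their summed scaled signal, in units of each array's 75th percentile, was 493 (wild type) and 610 (knockout). Of 12 Schwann cell markers, 9 lay above 0, with a median of 0.15 and sums of 26.3 and 30.5; Cdh19, a cadherin of the Schwann lineage, was the 1 past 1.5-fold, at 0.66. Their part in the Lama2 value was not tested.

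The minor collagen IV chains form networks best known from kidney, with α5 and α6 also present under the epidermis. Col4a5 read 2069 (wild type) and 2239 (knockout), 0.20 ± 0.20, and Col4a6 read 1920 and 2211, 0.29 ± 0.20. The dimmer probe of Col4a6 read 211 and 207, 0.07 ± 0.21. Both genes are X-linked, and the pools were unlike in sex, which cannot be told apart from genotype here. Col4a3 read 10.7 and 5.83 and was not well above background in either pool, so it has no difference.

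Col4a4 was the 1 gene whose probes went opposite ways. The brightest, at chr1:82447879-82447938 near the 3′ end, read 205 and 311, 0.69 ± 0.21 or 1.61-fold. The probe at chr1:82515563-82515622 read 45.0 and 30.2, -0.48 ± 0.25. A further probe, beside the first, read 3.85 in the wild-type pool, not well above background, and 60.1 in the knockout pool, which is at least 4.73-fold higher against the lowest signal of 13.5 that the wild-type array measured above background. With the measured probes averaged, Col4a4 stood at 0.10 and no longer passed 1.5-fold, so its place among the 3 higher genes rests on the choice of probe.

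The Fraser complex of Fras1, Frem1 and Frem2 lies in the embryonic epidermal basement membrane and holds epidermis to dermis before birth. Its members were near 0. Fras1 read 3617 and 3889, 0.20 ± 0.20. Frem1 read 5556 and 5709, 0.13 ± 0.20. Frem2 read 5634 and 5146, -0.04 ± 0.20. The proteins stabilise each other, and each of the 3 RNAs lay within 1 scanner error of 0.

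Npnt, nephronectin, an integrin ligand of the hair follicle basement membrane, was further out. Its probes read 500 and 644, then 191 and 220, with differences of 0.46 ± 0.20 and 0.29 ± 0.21. Hair follicle markers lay the other way: 15 of 16 were below 0, 7 of them at least 1.5-fold lower, with a median of -0.48 and sums of 176 and 120. Lowest were the hair keratin Krt31 at -1.29 and Msx2, a transcription factor of the hair matrix, at -1.06. Npnt did not share the sign of most of that list, and the part of hair follicle cells in its value was not tested.

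The broadly made receptors stood near 0. Itgb1, the β1 integrin chain that pairs with α3 and many other α chains, read 2840 and 2742, 0.04 ± 0.20, and 960 and 964 at its other probe, 0.10 ± 0.20. Bcam, a receptor for laminin α5, read 3501 and 2953, -0.15 ± 0.20. The value of Bcam and that of its ligand chain Lama5 were both within 1 error of 0.

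Probes of a gene mostly agreed. Of the 11 genes with several measured probes, 10 had probes of 1 sign, and the median range within a gene was 0.13 log2. Col4a4 alone had probes more than 1.5-fold apart. Of all 47 measured member probes, 39 lay above 0. The share over all probes was not counted. Over all measured genes, each by its brightest probe, it was 51.8%.

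**Figure D3:**
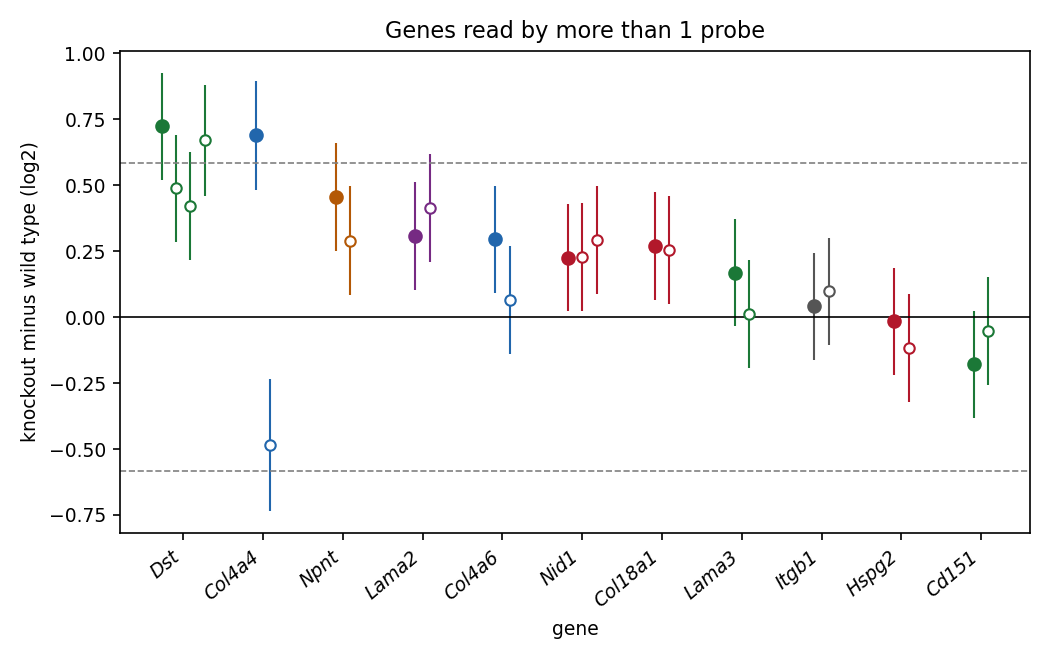
Differences, knockout minus wild type in log2, of each measured probe for the 11 genes with more than 1; filled points are the brightest probe of a gene, bars are 1 scanner error and dashed lines mark 1.5-fold. All 4 Dst probes lie between 0.42 and 0.72, while the probes of Col4a4 lie at 0.69 and -0.48.

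Other genes of the same system, from 4 lists of 84 genes with 82 measured, had a median of 0.10 log2, between that of the genes described here and that of all genes. Above 0 were 58 of 82. At least 1.5-fold higher were 3 of 82, where 6.74% of all genes were, and 0 were lower, where 4.50% were. Of 16 laminin receptors and partners, 12 lay above 0, with a median of 0.14, from Sdc1 (syndecan-1) at -0.25 to Sgca (a sarcoglycan of muscle) at 0.54, and 0 passed 1.5-fold. Of 20 adaptors and keratins of the junction, 14 lay above 0, with a median of 0.09, and 0 passed 1.5-fold; the kindlins Fermt1, of epidermis, and Fermt2 stood at its ends, at -0.39 and 0.36. Krt5 and Krt14, the keratins that hemidesmosomes anchor, were at -0.05 and 0.00.

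Other matrix components had a median of 0.05 over 23 genes. The 2 past 1.5-fold were Frem3, a dim relative of the Fraser proteins (54.2 and 81.6; 0.68 ± 0.22), and Papln, papilin (733 and 1091; 0.66 ± 0.20). Lowest were Egfl6, made by hair follicle cells, at -0.57 and Col15a1, a relative of collagen XVIII, at -0.49. Enzymes that build or cut the matrix had a median of 0.17 over 23 measured genes. Mmp3, stromelysin-1, a protease that can cut laminin and nidogen, was the 1 past 1.5-fold, at 94.8 and 260, a difference of 1.55 ± 0.21 or 2.93-fold.

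Markers of the cells that make these proteins had unlike medians. Of 11 basal keratinocyte markers, 6 lay above 0, with a median of 0.00 and sums of 275 and 290; Dlk2 at 0.60 was the 1 past 1.5-fold and 0 were lower. The median of the epidermal junction genes was 0.21. Above it among these markers stood only Dlk2, Trp63, a transcription factor of basal cells, at 0.30 and Krt15 at 0.24. The other markers lay at or below 0.21, down to Fermt1 at -0.39. The difference between the lists was not tested. Of 18 endothelial markers, 17 lay above 0, with a median of 0.52, 7 at least 1.5-fold higher and Sox18, at -0.59, the 1 lower; their sums were 25.3 and 33.3. Sox17 (1.02) and Emcn (0.84) were highest, and Kdr stood at 0.03.

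The median of the vascular part, 0.23, lay below that of the endothelial markers and close to that of mural cells, the pericytes and smooth muscle of vessel walls; these differences were not tested either. Of 10 mural markers, 9 lay above 0, with a median of 0.20, 0 past 1.5-fold and sums of 27.9 and 31.9. Of 12 fibroblast markers, 9 lay above 0, with a median of 0.10 and sums of 351 and 372; 0 passed 1.5-fold. Of 9 measured adipocyte markers, 1 lay above 0, with a median of -0.22 and sums of 123 and 106, and 3 were at least 1.5-fold lower. Lowest of these were Plin1, perilipin-1 of the lipid droplet, at -1.13 and Adipoq, adiponectin, at -0.64. Lep, of adipocytes, was not well above background on both arrays; all other markers of the lists given here were. The part of any cell type in the values of the basement membrane genes was not tested.

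**Figure D4:**
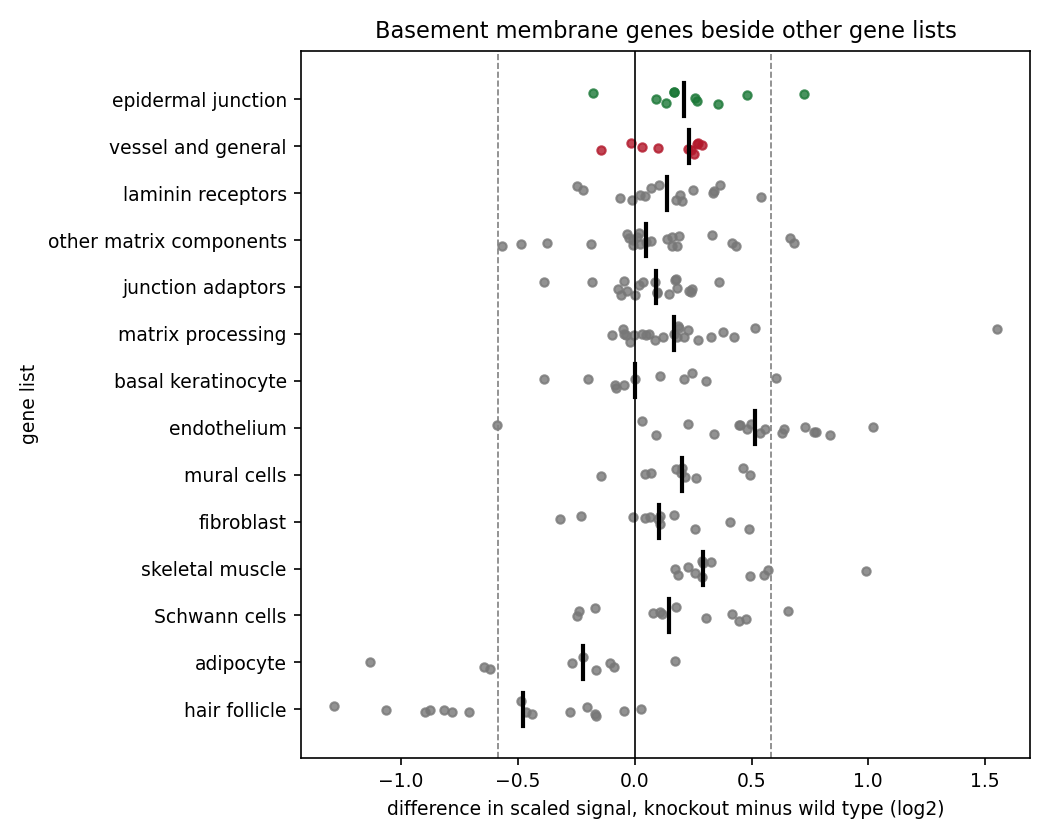
Differences, knockout minus wild type in log2, of single genes (points, jittered vertically) in the epidermal and vascular parts, 4 lists of related genes and 8 marker lists; black bars are medians and dashed lines mark 1.5-fold. The epidermal (0.21) and vascular (0.23) medians lie between those of basal keratinocyte (0.00) and endothelial (0.52) markers.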

How the data were processed

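Total RNA, 200 ng of each pool, was labelled with Cy3 and hybridised to 1-colour Agilent arrays of design 026655, with probe positions on mm9, per the labels' protocols and the file headers. The scanner software was Agilent Feature Extraction 11.5.1.1, per the submitters' processing notes. The deposited intensity of a spot, on a linear scale, had its background subtracted and spatial trends removed, per the file headers. The deposited value table holds a ratio: the processed intensity over 2406 (wild type) or 2273 (knockout), found by setting it against the scanner files. The choice of these constants is unknown.

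Here the log2 intensities were averaged over the spots of a probe and scaled to the 75th percentile of 39422 probes, leaving out controls and 234 outlier spots; 0 spots were saturated. The genes described kept the names in the files. Other probes were named through the RefSeq table of GRCm38.p6: 28754 by accession, 2029 by symbol, 162 by synonym and 1735 by the file's name, while 6742 had none. Scanner errors were averaged over the spots of a probe, without reduction for their number, and those of the 2 arrays were added in quadrature. The arithmetic was tested on simulated data; normexp used limma 3.58.1, and the rest Python 3.11.15. All members are described; from each other list, the genes named were those past 1.5-fold, up to the 2 highest and 2 lowest. Sdc1, Sgca, Fermt1, Fermt2, Egfl6, Col15a1, Trp63, Krt5, Krt14, Krt15 and Kdr were chosen after their values were seen. The members, lists and parts were chosen with earlier results of these data known.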

Additional observations from a re-analysis of the deposited data

How the results depend on the processing

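The alternatives were other scalings (75th percentile of probes above background, median, quantile), normexp background correction, the mean over probes, bright genes alone, no filter on dim probes and the deposited value table. Of the 33 differences, 31 kept their sign under every one of them that measured the gene; with median scaling, which moved the median of all genes from 0.01 to -0.04, Lama5 turned to -0.01 and Itgb1 to -0.01, and 26 members lay above 0 where 44.4% of all genes did. The count of members at least 1.5-fold higher was 1 with the mean over probes (Lama1; Dst then stood at 0.576 and Col4a4 at 0.10) and 1 among bright genes alone (Dst), which leave out the dim Lama1 and Col4a4. It was 2 with normexp (Dst and Lama1). The count lower was 1 without the filter, for Col4a3, which is not above background. The epidermal median ranged from 0.17 to 0.26, the vascular from 0.19 to 0.24 and their difference from -0.06 to 0.02, over these settings and with each member left out; the vascular median was 0.26 over Lama4, Col4a1, Col4a2 and Col18a1 alone, and the epidermal 0.26 over the laminin-332 and hemidesmosome genes alone. The hair follicle median was -0.71 among bright genes alone; no other list median moved beyond the scanner error, 0.20. Over all genes, 1309 were higher and 875 lower at 1.5-fold, against 852 and 427 with normexp, 400 and 240 among bright genes alone, and 2228 and 1350 without the filter. No paired analysis was possible because each group had 1 array. Dim probes, and the number of arrays, limit the precision.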

Other observations

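Collagen IV genes lie head to head in pairs. In the RefSeq table of GRCm38.p6 the starts of Col4a1 (on chromosome 8, minus strand, 11312826) and Col4a2 (plus strand, 11312805) were so close that their first 22 bases overlapped, and the differences of the pair were 0.24 and 0.26 log2. The starts of Col4a5 and Col4a6 on chromosome X lay 1342 bases apart, and their differences were 0.20 and 0.29. The remaining chains, Col4a3 and Col4a4, were not compared in this way, since Col4a3 was not well above background in either pool. Whether paired genes change together was not tested.

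The table held 30 promoters for 23 of the 34 genes. In the 250 bases before the start, 15 of the 30 held the GC box GGGCGG, where 32.7% of all promoters did. The AP-1 motif TGANTCA was in 0 of the 30, where 6.75% of all promoters held it. The letters TATAAA were in 1, that of Col17a1, where 12.4% of all promoters held them. Both strands were searched. Promoters of 1 gene can overlap, and absence says only that these letters are not in this window.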
